A study of Mus musculus with 12 samples.

Results

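Hey1 and 7 other genes of the Notch pathway (Hes1, Nrarp, Dtx1, Notch1, Notch2, Rbpj and Maml1) were followed in mouse Th17 cells treated with a STAT3 inhibitor, an IRE1alpha inhibitor or both. Hey1 had come up for its rise with Stattic in these libraries, and the 7 others were named as pathway genes to ask whether other Notch targets rose with it. The 8 genes were found by matching symbols to the Ensembl identifiers of the count table, 8 of 55401 rows, and all 8 passed the filter on low counts. Values from the contrast in which Hey1 came up, Stattic against None, are therefore given for these 8 genes as a description, without a test.

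The cells were Th17 cells differentiated from naive T cells of wild-type mouse lymph nodes. The groups were Kira8+Stattic, Stattic, Kira8 and None (no inhibitor), with 3 RNA-seq libraries each; the inhibitors were present for 4 hours. Kira8 inhibits the kinase of IRE1alpha, the endoplasmic reticulum stress sensor, and Stattic inhibits STAT3, the transcription factor downstream of IL-6 and IL-23. The labels do not say whether None received the solvent, nor whether replicates came from separate mice or cultures, so p-values speak only to how much these libraries vary, and that variation may be technical.

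Notch receptors are cleaved after binding a ligand on a neighbouring cell, and the freed intracellular part enters the nucleus. There it joins the DNA-binding protein RBPJ and a Mastermind-like coactivator such as MAML1 and switches on target genes. HES and HEY targets encode bHLH repressors, and NRARP and DTX1 are induced by Notch and in turn adjust it. In T cells the pathway is known for directing thymic lineage choice and for roles in helper cell differentiation.

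Kira8 replicate 2 and Stattic replicate 2 stood apart from the rest. They held 19813462 and 9275672 counts, against 51669791 to 85890966 in the other 10 libraries. Mitochondrial transcripts took 61.55% and 10.66% of their counts, against 3.38 to 5.22%, and counts lay on 39.8% and 32.7% of 1107 olfactory receptor genes, against 4.1 to 10.2%. The fit used the other 10 libraries (3 Kira8+Stattic, 2 Stattic, 2 Kira8, 3 None), and values with all 12 are given beside the main results for the 8 genes and, for the pathway list, as counts. Over the 10 libraries, T cell and Th17 markers (8 genes) summed to 1420 to 1540 CPM (counts scaled to a common library size) with both inhibitors. The sums were 1410 to 1690 with Stattic, 1170 to 1310 with Kira8 and 1630 to 3520 in None. The 7 B cell markers summed to 14.1 to 32 CPM with both inhibitors, 12.6 to 21.1 with Stattic, 32.4 to 41.2 with Kira8 and 119 to 148 in None, and none of the 7 was at 0 throughout a group. The 5 CD8 T and NK cell markers summed to 39 to 79.2 CPM with both inhibitors, 70.5 to 89.5 with Stattic, 34.5 to 47.9 with Kira8 and 144 to 246 in None, with Ncr1 at 0 throughout the inhibitor groups.

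Of the 8 genes, the RefSeq table of promoter windows (GRCm38.p6) held 6, without Hey1 and Hes1. Among the 3 genes that rose together below, Nrarp was the one with a window, so the 250 bases before its start (chr2:25180508-25180757, plus strand) are shown, with the motif CACGTG in capitals, an E-box letter pattern that bHLH proteins are known to bind.
Nrarp: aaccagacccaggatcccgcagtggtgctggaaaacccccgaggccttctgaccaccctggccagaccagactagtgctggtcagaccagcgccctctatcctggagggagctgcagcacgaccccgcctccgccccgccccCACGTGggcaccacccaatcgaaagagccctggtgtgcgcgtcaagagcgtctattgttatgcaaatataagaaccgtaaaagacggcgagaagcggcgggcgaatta
The search covered both strands, and CACGTG is the same on both. It occurred 1 time in the Nrarp window, 108 bases before the start, and 6.02% of 32851 windows of this length held it. TGGGAA, the core letters of RBPJ sites, did not occur in the Nrarp window on either strand, and 21.6% of all windows held it. These matches are descriptions of letters and not of binding.

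Hey1 (ENSMUSG00000040289, 3:8663359-8667256, mm10), which encodes a bHLH repressor, was abundant in counts in the libraries with Stattic and scarce in those without it. Raw counts were 554, 809 and 1717 with both inhibitors, 696 and 872 with Stattic, 30 and 31 with Kira8, and 12, 10 and 12 in None. On the scale of CPM with TMM factors, a normalisation for library composition, that is 15.4 ± 6.05 (SD, n = 3) with both inhibitors, 15.2 ± 2.26 (SD, n = 2) with Stattic, 0.503 ± 0.0207 (SD, n = 2) with Kira8 and 0.169 ± 0.0141 (SD, n = 3) in None. Every Stattic-treated library lay above every library without Stattic, and the lowest values were those of None. The Stattic libraries and those with both inhibitors overlapped.

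**Figure D1:**
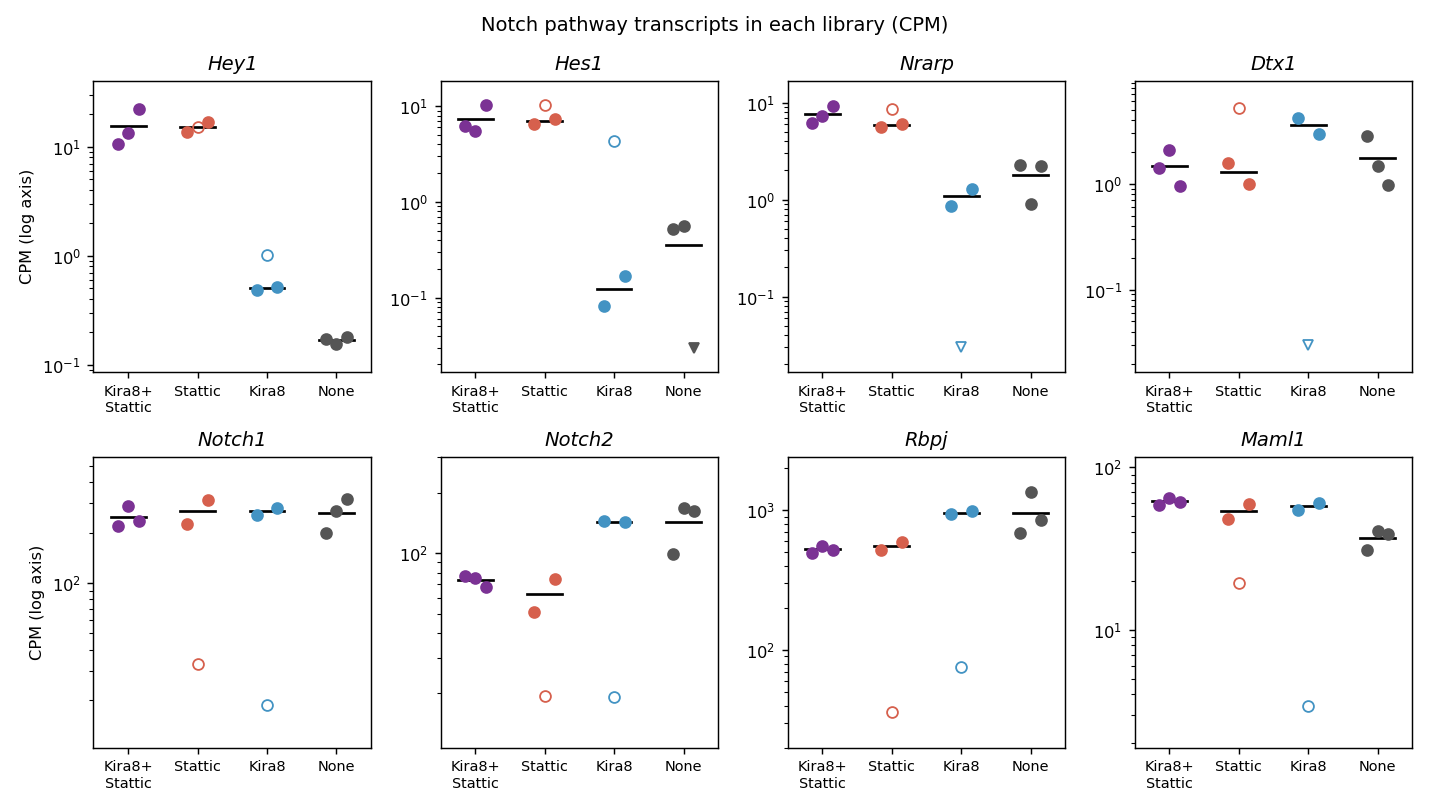
Level of each of the 8 genes in each library (CPM, log axis), by group. Filled points are the 10 libraries of the fit (CPM with TMM factors) with their group mean as a bar; open points are Kira8 replicate 2 and Stattic replicate 2 (CPM by library size), and triangles mark 0 counts. Hey1 lay at 10.6 CPM or above in every filled Stattic-treated library and at 0.518 or below in every filled library without it.

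Whether the Stattic response was also present under Kira8 was asked by comparing Kira8+Stattic with Kira8, which shares no library with Stattic against None. Hey1 rose 30.5-fold in this comparison (log2 change 4.93 ± 0.37 SE, edgeR quasi-likelihood adjusted p = 1.04e-05), Hes1 rose 58.2-fold and Nrarp rose 7.01-fold. The spread was estimated over all 10 libraries, and Hey1 was chosen with earlier results of these data known. The p of Hey1 is therefore not an independent test of its rise with Stattic. Notch2 and Rbpj fell, and Dtx1, Notch1 and Maml1 were not called. Thus 5 of the 8 genes were called, 3 higher and 2 lower, where 30.7% of all 21239 genes tested were called, 14.7% higher and 16% lower. The 3 higher include Hey1, which was chosen for its rise with Stattic. With so many genes called, a single call says little by itself, and the sizes of the changes are given for each gene.

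Hes1 (ENSMUSG00000022528, 16:30064384-30067796), a bHLH repressor and the best known direct Notch target, had raw counts of 324, 339 and 788 with both inhibitors against 5 and 10 with Kira8. The log2 change was 5.86 ± 1.03 SE (edgeR adjusted p = 0.00129), and the groups did not overlap. In CPM with TMM factors this was 7.32 ± 2.49 (SD, n = 3) with both inhibitors and 0.124 ± 0.0605 (SD, n = 2) with Kira8. The large fold rests on those 15 Kira8 counts in all, so its size is imprecise.

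Nrarp (ENSMUSG00000078202, 2:25180758-25183339) encodes an ankyrin repeat protein that is induced by Notch and dampens it. Its counts were 322, 446 and 719 with both inhibitors against 53 and 78 with Kira8. In CPM with TMM factors the libraries lay at 6.16, 7.34 and 9.29 with both inhibitors against 0.863 and 1.3 with Kira8, without overlap. The log2 change was 2.81 ± 0.43 SE (edgeR adjusted p = 0.000549). An annotated antisense RNA that shares exon sequence with Nrarp, Gm38287, had at most 4 counts in any library.

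Dtx1 (ENSMUSG00000029603, 5:120680202-120711927), a Notch-induced regulator also known for a role in T cell anergy, had the opposite sign. Its CPM with TMM factors were 1.42, 2.06 and 0.956 with both inhibitors against 4.18 and 2.94 with Kira8, again without overlap. The log2 change of -1.27 ± 0.49 SE was not called (edgeR adjusted p = 0.0665). It passed with adjusted p = 0.0322 without None replicate 1, 0.0485 without None replicate 3 and 0.0235 when only these groups entered the fit. The adjusted p rose to 0.127 without Kira8+Stattic replicate 1 and 0.191 without Kira8+Stattic replicate 3. Leaving out a Kira8 library also moved the log2 change, to -1 without Kira8 replicate 1 and -1.51 without Kira8 replicate 3. By value, the 3 targets that rose and Dtx1 did not share a direction, though the fall of Dtx1 was not called in the main fit.

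Among receptors, Notch2 (ENSMUSG00000027878, 3:98013527-98150361) lay at 76.8, 75.5 and 67.9 CPM (TMM) with both inhibitors against 144 and 143 with Kira8. It fell by 0.97 ± 0.22 SE on the log2 scale (edgeR adjusted p = 0.00663), and no library overlapped. Notch1 (ENSMUSG00000026923, 2:26457903-26516663), the receptor best known in T cells, lay at 220, 289 and 233 CPM with both inhibitors against 256 and 282 with Kira8. Its groups overlapped, and the log2 change was -0.12 ± 0.22 SE (edgeR adjusted p = 0.711).

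In the nuclear complex, Rbpj (ENSMUSG00000039191, 5:53466152-53657362) lay at 493, 559 and 523 CPM (TMM) with both inhibitors against 935 and 990 with Kira8. It fell by 0.87 ± 0.23 SE on the log2 scale (edgeR adjusted p = 0.0138), without overlap; the call was lost without Kira8 replicate 1 (adjusted p = 0.063) or Kira8 replicate 3 (0.0921), at log2 changes of -0.92 and -0.84. A processed copy of the gene, Rbpj-ps3, held counts equal to 1.72 to 2.91% of those of Rbpj in the 10 libraries, so a small share of reads may have been split between them. Maml1 (ENSMUSG00000050567, 11:50255634-50292311) lay at 58.7, 64.5 and 61.5 CPM with both inhibitors against 54.3 and 60.5 with Kira8, which overlapped, at a log2 change of 0.1 ± 0.17 SE (edgeR adjusted p = 0.687).

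With all 12 libraries in the edgeR fit, 0 genes of the whole table were called in Kira8+Stattic against Kira8, and the common dispersion was 1.01 against 0.143 with 10. There Hey1 changed by 3.08 ± 0.96 SE (adjusted p = 0.374), Nrarp by 3.31 ± 1.13 SE (adjusted p = 0.385) and Hes1 by 0.13 ± 1.77 SE (adjusted p = 0.985) on the log2 scale. Kira8 replicate 2 had 20 counts for Hey1, 86 for Hes1, and 0 for Nrarp and Dtx1. Of the 8 genes, Hey1 and Nrarp had an unadjusted p under 0.05 there (0.00826 and 0.0131). A limma voom fit that weighted libraries by quality called 6 of the 8, Hey1 at a log2 change of 4.87 (adjusted p = 6.02e-07), Hes1 at 5.78 (9.62e-05) and Nrarp at 2.84 (1.6e-05) with all 12.

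In Stattic against None, which brought up Hey1, log2 changes were 6.47 ± 0.36 SE for Hey1, 4.28 ± 0.8 SE for Hes1 and 1.71 ± 0.38 SE for Nrarp. Counts of Hes1 were 336 and 383 with Stattic against 36, 36 and 0 in None, and those of Nrarp 290 and 311 against 156, 58 and 146. Both genes lay higher in each Stattic library. The cofactors and receptors gave 0.54 ± 0.16 SE for Maml1, 0.04 ± 0.22 for Notch1, -0.45 ± 0.5 for Dtx1, -0.79 ± 0.24 for Rbpj and -1.19 ± 0.24 for Notch2. Of all genes tested, 39% were called in this comparison, 20.1% higher and 18.9% lower, and 0.31% with all 12 libraries.

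Notch2 lay at 51.1 and 74.4 CPM (TMM) with Stattic against 99, 168 and 162 in None, and Rbpj at 520 and 593 against 692, 1340 and 849. Both were lower in each Stattic library, while Notch1 (225 and 313 against 199, 270 and 315) and Dtx1 (1.56 and 1 against 2.82, 1.48 and 0.968) overlapped. With all 12 libraries the log2 change of Hey1 was 6.55 ± 1.12 SE, of Hes1 4.59 ± 2.05 SE and of Nrarp 2.02 ± 1.07 SE. Stattic replicate 2 alone had 15.2 CPM by library size for Hey1, inside the range of 12.6 to 16.2 CPM on the same scale in the other Stattic libraries. However, 5.56% of 42287 genes under 1 CPM in None also reached that level in Stattic replicate 2.

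B cell marker levels moved with these comparisons: 6 of 7 B cell markers were called lower with Stattic than in None, and their part in the Notch2 and Rbpj values was not tested. In Kira8+Stattic against Kira8, 1 of the 7 was called lower and 0 higher. Of the 4 CD8 T and NK cell markers tested, 2 were called higher and 0 lower in Kira8+Stattic against Kira8, and 1 higher and 1 lower in Stattic against None; their part in the values of the 8 genes was not tested. Of the 6 endothelial markers, another cell type in which Hey1 is known to be active, Cdh5 and Emcn were at 0 in each of the 7 libraries with an inhibitor, those with high Hey1 included. Kdr, Tek and Tie1 had means of 0.0725, 0.0172 and 0.0518 CPM with both inhibitors. The 6 markers, Pecam1 among them, summed to 35 to 53.8 CPM with both inhibitors, 39.4 to 52.9 with Stattic, 78.6 to 89.3 with Kira8 and 45 to 81.5 in None. Of the 5 stromal markers tested, 1 was called higher and 0 lower in Kira8+Stattic against Kira8, and 1 higher and 1 lower in Stattic against None. For the 5 myeloid markers these were 0 and 0, then 1 and 0. For the 8 T cell and Th17 markers they were 2 and 0, then 2 and 4. Their part was not tested. In bulk RNA, fewer cells of a type and less RNA per cell cannot be told apart.

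**Figure D2:**
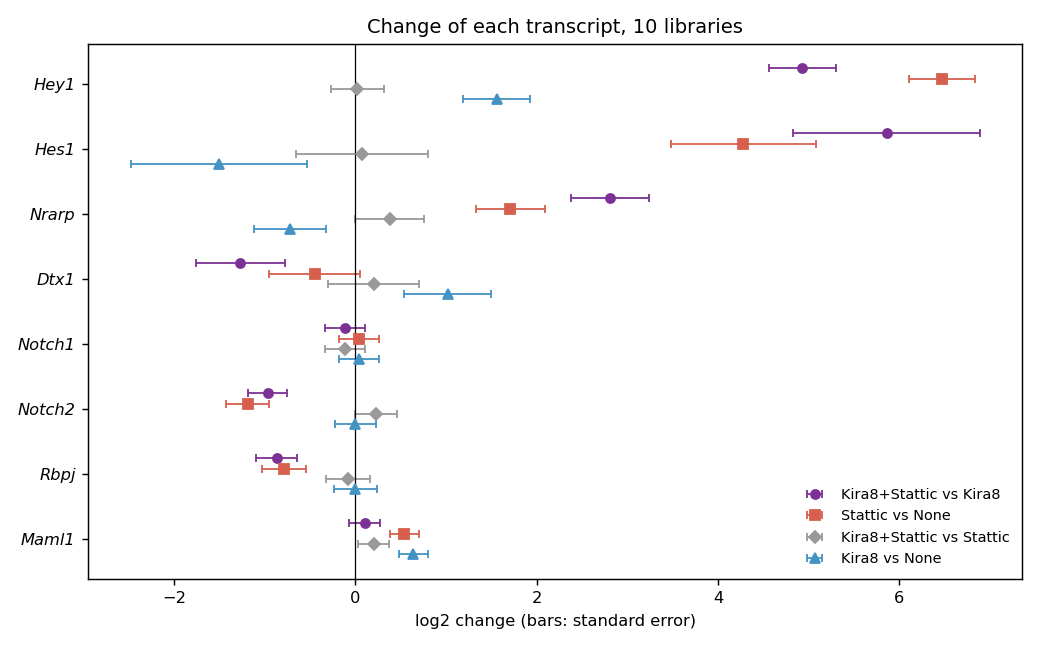
Log2 change of each of the 8 genes in the comparisons of the 4 groups (points, with the standard error as a bar; 10 libraries, edgeR). Hey1, Hes1 and Nrarp lie above 0 and Notch2 and Rbpj below 0 where Stattic was added, and all 8 lie near 0 where Kira8 was added to Stattic.

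Kira8 alone against None asked what the IRE1alpha inhibitor did to these genes. Maml1 was called higher and none of Hes1, Nrarp, Dtx1, Notch1, Notch2 and Rbpj was called, where 19.3% of all genes were, 9.7% higher and 9.59% lower. Hey1 had been chosen for its rise over these same None libraries, so its values are given without a test. It lay at 0.488 and 0.518 CPM (TMM) with Kira8 against 0.173, 0.154 and 0.181 in None, from 30 and 31 against 12, 10 and 12 counts. The groups did not overlap, and the log2 change was 1.56 ± 0.37 SE, or 3.39 ± 0.98 SE with all 12 libraries.

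Maml1 lay at 54.3 and 60.5 CPM (TMM) with Kira8 against 30.9, 40.7 and 39 in None, without overlap, at a log2 change of 0.64 ± 0.16 SE (edgeR adjusted p = 0.0167); the call was lost without Kira8 replicate 1 (0.071), without Kira8 replicate 3 (0.17) and with all 12 libraries (log2 change 0.23 ± 0.5 SE, 0.905). Hes1 was lower by value, at 0.0814 and 0.167 CPM with Kira8 against 0.518, 0.554 and 0 in None, which overlapped. Its log2 change of -1.51 ± 0.97 SE was not called (edgeR adjusted p = 0.316). It was called at -2.1 without None replicate 3 (adjusted p = 0.0114), but not without None replicate 1 (0.507) or None replicate 2 (0.547). With all 12 libraries it was 4.2 ± 2.01 SE (0.399). Nrarp changed by -0.72 ± 0.4 SE (edgeR adjusted p = 0.246). Its adjusted p was 0.0473 without None replicate 2, 0.447 without None replicate 1 and 0.442 without None replicate 3. Dtx1 changed by 1.02 ± 0.48 SE (edgeR adjusted p = 0.171). Its adjusted p was 0.0402 without None replicate 1, 0.296 without None replicate 2 and 0.345 without None replicate 3. Nrarp overlapped between these groups and Dtx1 did not, with 4.18 and 2.94 CPM with Kira8 against 2.82, 1.48 and 0.968 in None. Notch1, Notch2 and Rbpj lay within 0.04 of 0 on the log2 scale, with SEs of 0.22 to 0.24. The 7 B cell markers again differed, with 5 called lower with Kira8 than in None. Of the CD8 T and NK cell markers, 3 of 4 tested were called lower. Of the 8 T cell and Th17 markers, 4 were called lower and 0 higher. The part of any of these markers in the values above was not tested.

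Kira8 added to Stattic, in Kira8+Stattic against Stattic, gave 0 calls among the 8 genes. The lowest unadjusted p was 0.252, so 0 of 8 passed an unadjusted 0.05 in edgeR, DESeq2 also called 0, and 0.0141% of all genes were called. Log2 changes were 0.02 ± 0.29 SE for Hey1, 0.07 ± 0.73 for Hes1, 0.38 ± 0.38 for Nrarp and 0.2 ± 0.5 for Dtx1. Those of Notch1, Notch2, Rbpj and Maml1 lay between -0.12 and 0.23, with SEs of 0.17 to 0.24. Nrarp lay at 6.16 to 9.29 CPM (TMM) with both inhibitors against 5.67 and 5.99 with Stattic, a small gap without overlap, and the others overlapped. The interval of 1 SE either side was widest for Hes1.

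Kira8+Stattic against None, which shares the None libraries with the contrast that brought up Hey1, gave log2 changes of 6.49 ± 0.35 SE for Hey1, 4.35 ± 0.77 for Hes1 and 2.09 ± 0.35 for Nrarp. Maml1 was at 0.74 ± 0.15 SE, Notch1 at -0.08 ± 0.19, Dtx1 at -0.25 ± 0.44, Rbpj at -0.87 ± 0.21 and Notch2 at -0.96 ± 0.2. Of all genes tested, 40.8% were called, 20.8% higher and 20% lower, and 0.272% with all 12 libraries. The Stattic change of Hey1 with Kira8 minus that without it was -1.54 ± 0.47 SE on the log2 scale, given with no test; the corresponding value was 1.59 ± 1.22 SE for Hes1 and 1.1 ± 0.55 SE for Nrarp. Of all genes, 8.52% were called for this difference, 4.55% higher and 3.97% lower.

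Per kilobase of exon, the order of levels in None was Rbpj (75.4 ± 26.7 CPM per kb, TMM scale, SD, n = 3), Notch1 (18.4 ± 4.1), Notch2 (13.3 ± 3.55), Maml1 (6.67 ± 0.947), Nrarp (0.69 ± 0.298), Dtx1 (0.333 ± 0.182), Hes1 (0.175 ± 0.152) and Hey1 (0.0519 ± 0.00432). Notch1 and Notch2, Nrarp and Dtx1, Dtx1 and Hes1, and Hes1 and Hey1 differed by less than the sum of their SDs. With both inhibitors Hey1 stood at 4.71 ± 1.85 CPM per kb (SD, n = 3), Hes1 at 3.59 ± 1.22 and Nrarp at 2.94 ± 0.611, by group means above Dtx1 at 0.28 ± 0.105 and below Notch2 at 6.81 ± 0.443. With Stattic alone they stood at 4.66 ± 0.693 (SD, n = 2), 3.42 ± 0.283 and 2.26 ± 0.0892 CPM per kb. By group means the 3 targets stayed below Notch1, Notch2, Rbpj and Maml1 in both groups with Stattic. In each of these groups, however, Hey1 and Notch2 (5.82 ± 1.53 with Stattic alone) differed by less than the sum of their SDs.

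The rest of the pathway was read from 70 further genes grouped by role, 66 of them tested. In Kira8+Stattic against Kira8, 31 of the 66 were called (47%), 17 higher and 14 lower, at a median log2 change of 0.12, where 30.7% of all genes were called and their median was also 0.12. In Stattic against None, 41 were called (62.1%), 27 higher and 14 lower, at a median of 0.42, where 39% of all genes were called at a median of 0.08. The counts by role given below stand against these shares of all genes. With all 12 libraries edgeR called 0 of the list in the first comparison and 2 in the second. These comparisons share no library: 21 genes were called in both in the same direction, 13 higher and 8 lower, and 0 in opposite directions. That is 67.7% of the 31 and 51.2% of the 41, close to the 64.3% and 50.6% over all genes called, of which 4191 shared a direction and 170 did not. Without Kira8 replicate 1 or Kira8 replicate 3, 19 and 18 of the list were called in Kira8+Stattic against Kira8.

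The HES and HEY relatives followed Hey1 in part. Hey2 had 38, 48 and 243 counts with both inhibitors against 0 and 0 with Kira8, Heyl had 20, 48 and 35 against 0 and 0, and Hes5 had 14, 10 and 21 against 0 and 0. Against a floor of 3 counts per library, Hey2 was at least 28.0-fold higher, Heyl at least 10.0-fold and Hes5 at least 4.35-fold (edgeR adjusted p = 0.000475, 0.0312 and 0.0359). In Stattic against None, Hes5 was at least 5.23-fold and Hes7 at least 9.92-fold higher (edgeR adjusted p = 0.0123 and 0.0085), with 11 and 16 and with 12 and 39 counts against 0 in all 3 None libraries, and Hey2 and Bhlhe41 were also called higher. Heyl did not follow Hey1 there, with 0 and 4 counts with Stattic against 0, 4 and 0 in None. All these levels were low: Hey2, the highest of the Hey2, Heyl, Hes5 and Hes7 group, stayed at 3.14 CPM (TMM) or below.

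Not every relative moved so. Hes6, a relative known to oppose HES1, was not called, at a log2 change of 0.08 ± 0.21 SE in Kira8+Stattic against Kira8 (edgeR adjusted p = 0.717). Bhlhe40, a bHLH repressor abundant in activated T cells, fell by 1.46 ± 0.26 SE on the log2 scale (adjusted p = 0.00147). In that comparison 3 of 7 tested relatives rose, 1 fell and 3 were not called. With Stattic against None 4 rose, 0 fell and 3 were not called.

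**Figure D3:**
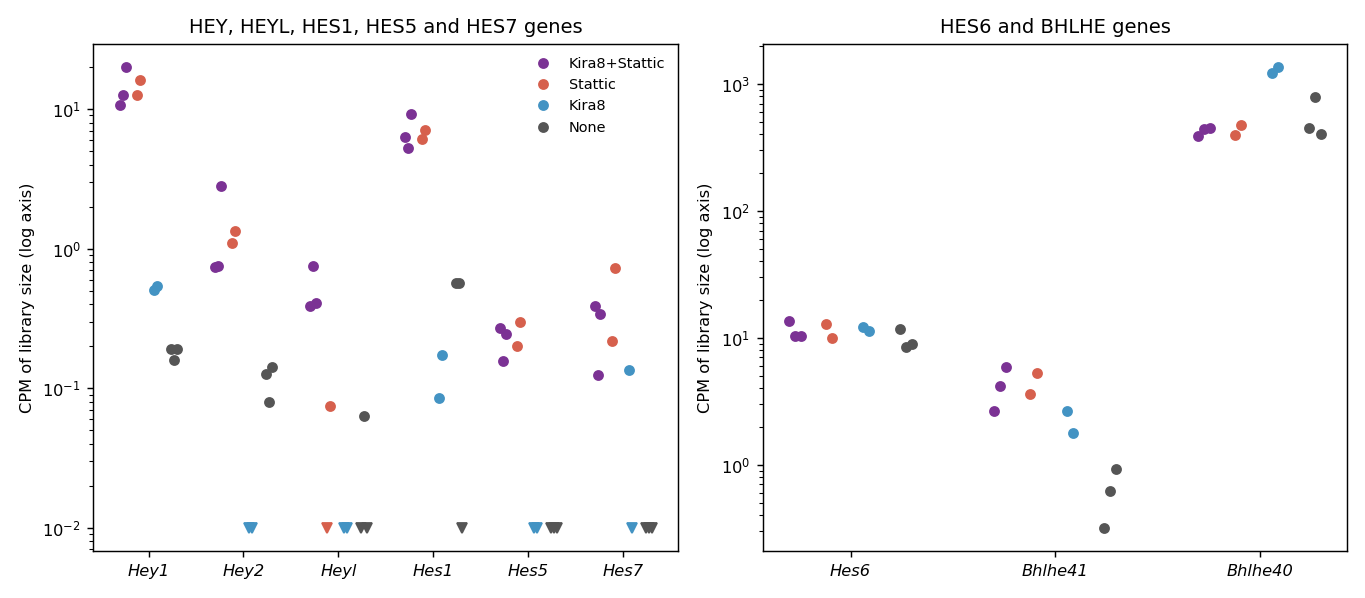
Levels of the HES and HEY family genes in the 10 libraries of the fit (CPM, log axis), by group; downward triangles at the foot of the axis mark 0 counts. Hey1, Hey2 and Hes1 stand higher in the Stattic-treated libraries, Hey2 with 38 to 243 counts against 0 with Kira8, while Hes6 and Bhlhe40 were not called higher with Stattic.

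Among ligands, which are made by the cell that presents the signal, Jag2 rose in Kira8+Stattic against Kira8, at 7.33, 7.18 and 7.63 CPM (TMM) with both inhibitors against 2.75 and 3.09 with Kira8 (log2 change 1.34 ± 0.27 SE, edgeR adjusted p = 0.00297). The 4 other ligands were not called there. Against None, Stattic raised 2 of 5 (40%), where 39% of all genes were called, 20.1% higher. Jag2 rose by 1.14 ± 0.25 SE and Dll1 by 3.74 ± 0.96 SE on the log2 scale (edgeR adjusted p = 0.00375 and 0.00861). Of the other receptors, Notch4 rose by 1.84 ± 0.62 SE in the first comparison and by 3.32 ± 0.59 SE in the second (adjusted p = 0.0423 and 0.000949), at 4.51 CPM or below, and Notch3 was not called in either.

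The enzymes that put sugars on Notch receptors, which tune ligand binding, fell or were not called. In Kira8+Stattic against Kira8, 3 of 5 fell and 0 rose: Pofut1, the O-fucosyltransferase that Notch receptors need, Poglut1, the O-glucosyltransferase, and Lfng, a Fringe enzyme. Pofut1 lay at 28.7, 24.3 and 18.8 CPM (TMM) with both inhibitors against 101 and 109 with Kira8 (log2 change -2.13 ± 0.21 SE, edgeR adjusted p = 3.89e-05). With Stattic against None 4 of 5 fell, with Poglut1 at 13.4 and 13.6 CPM with Stattic against 52.2, 66 and 52.6 in None (log2 change -2.08 ± 0.18 SE, adjusted p = 8.02e-06) and Lfng at 26.8 and 17.5 against 98.6, 70.2 and 97.8 (-2 ± 0.25 SE, adjusted p = 7.84e-05). Rfng was not called in either comparison.

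Of the 10 genes for receptor cleavage, 2 were called in Kira8+Stattic against Kira8 (20%), where 30.7% of all genes were called. Ncstn, the nicastrin subunit of gamma-secretase, fell by 1.1 ± 0.13 SE on the log2 scale (edgeR adjusted p = 9.5e-05), at 58.4 to 60 CPM (TMM) with both inhibitors against 123 and 130 with Kira8, and Psenen rose by 0.82 ± 0.26 SE (adjusted p = 0.0353). With Stattic against None 2 rose and 2 fell (40% called), close to the 39% of all genes called. Aph1c rose by 4.01 ± 0.45 SE (adjusted p = 3.99e-05) and Aph1b by 2.14 ± 0.29 SE (adjusted p = 0.000143), but these are near-identical copies between which reads can be split, so each value is uncertain. The sheddases Adam10 and Adam17 were not called in either comparison.

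Among regulators of receptor turnover, Dtx3l, a ubiquitin ligase also known as an interferon-induced gene, fell in both comparisons. It lay at 30.2, 20.6 and 19.3 CPM (TMM) with both inhibitors against 147 and 139 with Kira8 (log2 change -2.61 ± 0.23 SE, edgeR adjusted p = 2e-05), and at 28.4 and 25.4 with Stattic against 145, 138 and 214 in None (-2.62 ± 0.25 SE, adjusted p = 1.44e-05). Numb, an adaptor that targets Notch for endocytosis, rose by 0.58 ± 0.16 SE in the first (adjusted p = 0.0148) and by 1.46 ± 0.15 SE in the second (adjusted p = 2.33e-05). Over the 9 genes of the group, 2 rose and 4 fell in Kira8+Stattic against Kira8, and 5 rose and 1 fell in Stattic against None.

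Groucho-family corepressors, with which HES and HEY proteins and RBPJ can work, rose. Tle4 lay at 72.4, 115 and 101 CPM (TMM) with both inhibitors against 17 and 13.6 with Kira8 (log2 change 2.65 ± 0.22 SE, edgeR adjusted p = 1.58e-05), and at 102 and 115 with Stattic against 11.2, 12.3 and 13.5 in None (3.14 ± 0.2 SE, adjusted p = 1.35e-06). Tle3 rose by 1.36 ± 0.16 SE in Kira8+Stattic against Kira8 (adjusted p = 0.000111). Cir1, a corepressor that binds RBPJ, rose by 2.21 ± 0.19 SE in Stattic against None (adjusted p = 7.81e-06). Of the 10 corepressors, 5 rose and 1 fell in Kira8+Stattic against Kira8, and 6 rose and 3 fell in Stattic against None.

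Other genes known as Notch targets in T cells did not move as one. Il2ra, the IL-2 receptor alpha chain and also a STAT target, lay at 362, 328 and 296 CPM (TMM) with both inhibitors against 1700 and 2130 with Kira8 (log2 change -2.54 ± 0.18 SE, edgeR adjusted p = 7.9e-06), and fell by 2.52 ± 0.2 SE with Stattic against None (adjusted p = 4.51e-06). Ccnd3, cyclin D3, rose by 1.47 ± 0.19 SE in Kira8+Stattic against Kira8 (adjusted p = 0.000183). Of 7 tested, 2 rose and 2 fell in that comparison, and 3 rose and 2 fell in Stattic against None, where Myc fell by 1.48 ± 0.2 SE (adjusted p = 0.000123).

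**Figure D4:**
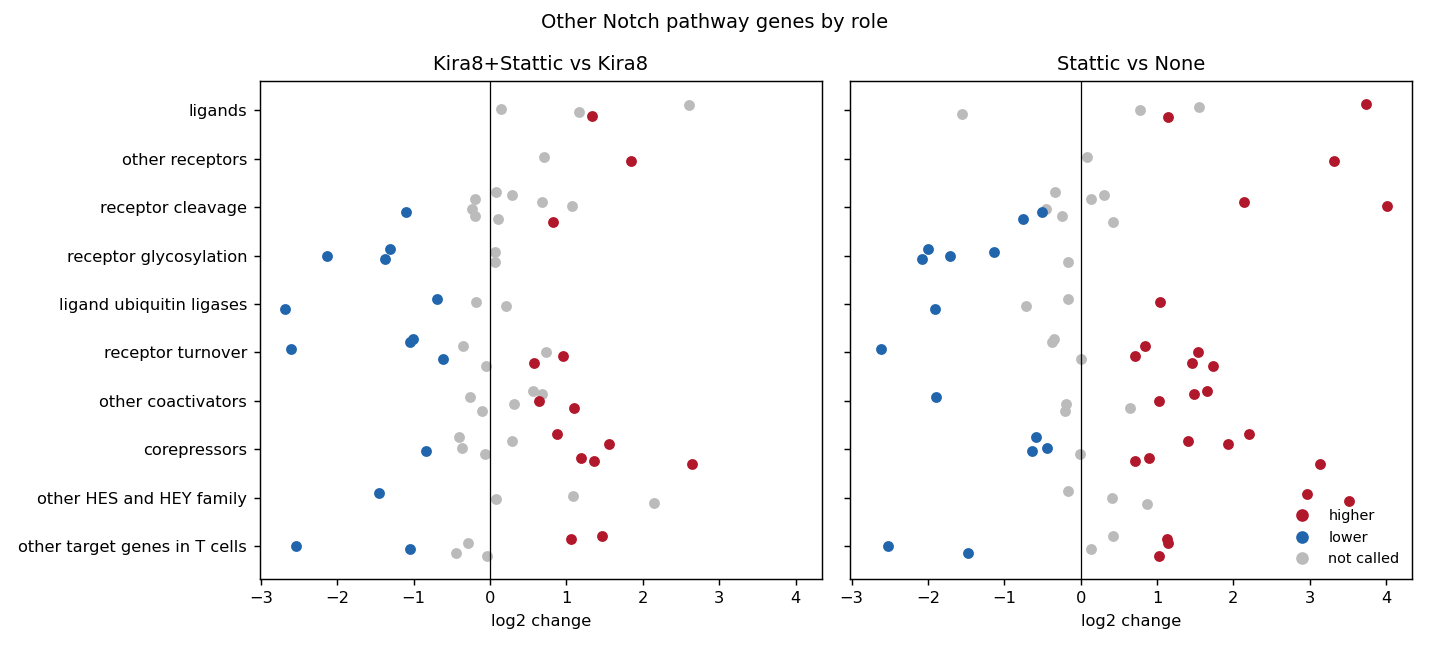
Log2 change of the pathway genes, grouped by role, in Kira8+Stattic against Kira8 (left) and Stattic against None (right), each point a gene; genes with 0 counts in all libraries of the group without Stattic are left out (Dll3, Hey2, Heyl and Hes5 on the left, Hes5 and Hes7 on the right). Receptor glycosylation genes lie at or below 0 for the most part, with medians of -1.31 and -1.71, and corepressors lie mostly above, with medians of 0.58 and 0.8.

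With Kira8 alone against None, 25 of the 66 pathway genes were called (37.9%), 16 higher and 9 lower, at a median log2 change of 0.14, where 19.3% of all genes were called at a median of 0. Without Kira8 replicate 3 the count was 12. Trib2, Il7r and Igf1r, among the T cell targets, rose by 1.01 ± 0.14, 1.1 ± 0.15 and 1.28 ± 0.18 SE on the log2 scale (edgeR adjusted p = 0.000522, 0.000606 and 0.000665), and the ubiquitin ligase Mib2, which acts on ligands, rose by 1.08 ± 0.17 SE (0.00108). Myc fell by 1.48 ± 0.2 SE, the Fringe gene Mfng by 1.4 ± 0.23 SE, the acetyltransferase Kat2a by 1.45 ± 0.25 SE and Ccnd3 by 1.04 ± 0.18 SE (edgeR adjusted p = 0.000438, 0.00138, 0.00192 and 0.00214). No ligand and no other receptor was called. In Kira8+Stattic against Stattic, edgeR called 0 of the 66 and DESeq2 0, with 1 at an unadjusted p under 0.05. In Kira8+Stattic against None 43 were called (65.2%), 29 higher and 14 lower, where 40.8% of all genes were called, 20.8% higher and 20% lower.

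The 8 genes whose pattern over the 10 libraries was most like that of Hey1, by Pearson's r of log2(CPM + 0.5) among 11633 genes, included Usp38 (0.996), Dnajb4, Arc, Hspa2, Bag3, Ahr and Phlda1 (0.994 for the last). Dnajb4, Hspa2 and Bag3 are chaperones or a cochaperone, and Ahr is the aryl hydrocarbon receptor of Th17 cells. Hes1 had r = 0.97 at rank 211 and Nrarp r = 0.93 at rank 688, against -0.9 for Notch2 and -0.85 for Rbpj. These libraries fall into those with and those without Stattic and share their composition, so any gene that changed strongly with Stattic scores high. With all 12 libraries, 0 of these 8 genes stayed among the closest 8.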

How the data were processed

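RNA from 12 mouse Th17 libraries was analysed from the authors' deposited table of raw gene counts, 55401 Ensembl genes, aligned to mm10 per the submitters' processing notes; the sources used here give no aligner, counter, annotation or strand setting. Symbols, positions and exon lengths came from GENCODE vM21, and promoter windows from RefSeq (GRCm38.p6). The fit was edgeR 4.0.16 (R 4.3.3: filterByExpr, TMM, quasi-likelihood test, 1 coefficient per group) on 10 libraries; calls were made where the p adjusted over all 21239 genes (Benjamini-Hochberg) was below 0.05. Alternatives used all 12 libraries, limma voom 3.58.1 with quality weights, DESeq2 1.42.0, other scalings, no filter, a replicate block, the compared groups alone and leaving out each library. The fit was tested on simulated data. Named pathway genes were the 4 called higher and the 4 called lower with the lowest adjusted p in each of 3 comparisons, beside genes named after their values were seen; likeness to Hey1 used genes with a mean of 1 CPM or more. The 8 genes and all lists were chosen with earlier results of these data known. No replicate pair agreed within counting noise. Floors of 3 counts cover counting error only. Some items are not reported here.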

Additional observations from a re-analysis of the deposited data

Results flagged for a closer look

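For 12 genes of the pathway list the Stattic change differed with Kira8 present, by edgeR's test of the difference itself, where 8.52% of all genes tested were called. These 12 had been named for low adjusted p in comparisons that make up this difference, in the same libraries, so their tests are not independent of that choice. Given as the log2 change of Kira8+Stattic against Kira8 minus that of Stattic against None, the difference was -1.43 for Igf1r (adjusted p = 0.00804), -1.19 for Il7r (0.00834), -1.06 for Trib2 (0.00858) and -1.22 for Mib2 (0.0107). It was -2.93 for Aph1c (0.013), -1.33 for Cir1 (0.0131) and -0.89 for Numb (0.0265). It was positive for Kat2a at 1.63 (0.015), Ccnd3 at 1.04 (0.0279), Mfng at 1.2 (0.0346), Myc at 1.03 (0.0352) and Hey2 at 6.06 (0.0499), whose Kira8 libraries were at 0. These 12 are the genes named in the text, among 16 of the list called, 5 positive and 11 negative; there were 3 without Kira8 replicate 1, 4 without Kira8 replicate 3, 5 without Stattic replicate 3, and 10, 10 and 8 without Kira8+Stattic replicates 1, 2 and 3.

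Nrarp had opposite signs for Kira8: a log2 change of 0.38 in Kira8+Stattic against Stattic, with every library higher, and -0.72 in Kira8 against None, where groups overlapped. The difference was 1.1 ± 0.55 SE, given with no test because it contains the contrast in which Hey1 came up.

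The libraries left out of the fit also held values above None, on the scale of CPM by library size. In Kira8 replicate 2, Hey1 had 1.01 and Hes1 4.34 CPM, levels that 16.3% and 4.78% of 42287 genes under 1 CPM in None also reached in that library. In Stattic replicate 2, Hey1 had 15.2, Hes1 10.2, Nrarp 8.52 and Dtx1 5.17 CPM, reached there by 5.56%, 8.57%, 9.97% and 13.6% of those genes.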

How the results depend on the processing

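With all 12 libraries in edgeR, called genes of the 8 numbered 0 in Kira8+Stattic against Kira8 and 0 in Kira8 against None. Called pathway genes numbered 0 in Kira8+Stattic against Kira8, 2 in Stattic against None, 0 in Kira8 against None and 2 in Kira8+Stattic against None, and the interaction 0; the cause was not tested. With a replicate block on all 12 libraries each of these 7 counts was 0, and Ncstn turned to 0.02 in Kira8+Stattic against Kira8 and Il7r to -0.17 in Kira8 against None. When only the groups compared entered the fit, 1 of the 8, Maml1, was called in Kira8 against None. The main fit called 2 of the 8 there with Hey1 counted, though Hey1 is given above without a test. The limma voom fit with quality weights, DESeq2, and scaling by RLE or by library size left all 11 counts and medians close to the main fit. So did leaving out the filter, and so did the replicate block on 10 libraries. Counts stayed within 1.5 times. Medians moved by less than the median over the 8 genes of the larger within-group SD of log2 CPM. Scaling by library size moved the median of all genes by -0.16 in Stattic against None, -0.12 in Kira8+Stattic against Kira8 and -0.15 in Kira8+Stattic against None. Same-numbered libraries deviated together weakly, with correlations of -0.01 to 0.21 over 13 pairs, so the numbers were not taken as pairs; 9 of 10 libraries were closest to one of their own number, a hint from the data. With the replicate block on 10 libraries, Dtx1 was called in Kira8+Stattic against Kira8 (log2 change -1.41, edgeR adjusted p = 0.0285), the 1 call of 70 values for named genes that it changed. DESeq2 called 3179 genes of the whole table in the interaction and 51 in Kira8+Stattic against Stattic, against 1810 and 3 with edgeR. Leaving out 1 library at a time gave 4 to 6 of the 8 in Kira8+Stattic against Kira8, 0 to 3 in Kira8 against None (Hey1 counted) and 0 in Kira8+Stattic against Stattic. For the pathway list it gave 18 to 34, 33 to 44 in Stattic against None, 12 to 25 in Kira8 against None, 0 in Kira8+Stattic against Stattic, 39 to 46 in Kira8+Stattic against None, and 3 to 15 in the interaction. Medians over the 8 ran from 0.11 to 0.46 in Stattic against None and 0.25 to 0.45 in Kira8+Stattic against None. Counts of 36 or fewer for Hey1 and Hes1 in the 5 fitted libraries without Stattic limit the precision of their folds, and with 2 libraries in the Kira8 and Stattic groups a single one can decide a call.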
